A study of Mus musculus with 12 samples.

Results

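The AP-1 and Nr4a immediate early genes were followed as 10 named genes among the 55304 gene symbols of the table: Fos, Fosb, Fosl1 and Fosl2 of the FOS family, Jun, Junb and Jund of the JUN family, and Nr4a1, Nr4a2 and Nr4a3 of the NR4A family. The rule for membership was the symbol alone, although the families were picked with earlier results of these data known. All 10 were found, and all 10 were among the 24736 genes that passed the filter on low values.

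The study measured RNA of sorted corticotrophs, the pituitary cells that release ACTH, to ask how they respond to the synthetic glucocorticoid dexamethasone (DEX) and recover once it is withdrawn. The cells came from male Pomc-eGFP transgenic mice on a C57Bl6/J background, whose age for the experiment is given as 8 weeks and who were older when killed after treatment. Control mice drank plain water. DEX mice had 2.5 µg/ml DEX in their water for 4 weeks, and the recovery groups had the same 4 weeks of DEX followed by plain water for 1 week (7 days) or 4 weeks (28 days). Every animal carried the transgene, including Control animals, and eGFP was driven by the Pomc promoter, so the sort depended on the activity of a gene that DEX represses. Each group had 3 libraries (n = 3 pools of 3 pituitaries each per the labels, or of 2 or 3 per the methods), and statistics compare pools, not mice.

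FOS and JUN proteins are basic leucine zipper factors that pair with each other to form AP-1, and FOS proteins cannot pair among themselves. NR4A proteins are orphan nuclear receptors that bind DNA without a known hormone. Both groups are immediate early genes, whose transcription starts within minutes of a signal without new protein synthesis. In corticotrophs, corticotrophin-releasing hormone acts through cAMP and calcium to induce Fos and Nr4a1. NR4A factors bind the Pomc promoter, and glucocorticoid receptor antagonises both NR4A and AP-1. Tissue dissociation and cell sorting also induce immediate early genes.

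The short core of the cAMP response element (CRE), TGACG, was looked for on both strands in the RefSeq promoters (GRCm38.p6), since cAMP signalling is a known input to several of these genes. A promoter was given for 9 of the 10 genes, all but Fosl1, and the 250 bases before the transcription start were searched. The core was present before the start in 17.9% of the promoters of 27025 genes. It was present in 6 of the 9: Nr4a1, Nr4a2 and Nr4a3 held 4 copies each, Fos held 2, and Fosb and Junb held 1. At least 4 copies were present in 41 genes, 0.152% of all, a limit chosen after the counts were seen. Fosl2, Jun and Jund had no copy in this window. The Fosl2 window (chr5:32136222-32136471) lies inside the gene as annotated in GENCODE M21, which starts at 32135801. That of Jund (chr8:70697489-70697738) does not reach the annotated start at 70698949. For these genes, the lack of a copy holds for the RefSeq windows only. The full CRE, TGACGTCA, which contains the core, was found in 1.88% of all promoters when 50 bases after the start were included, and in none of the 9. In the same window the CArG box bound by SRF was found in 1.57% of promoters, the AP-1 site, TGANTCA, in 7.93%, and the NR4A site (NBRE), AAAGGTCA, in 1.46%, with no match in the 9. A match is a run of letters and was not tested for binding. Other spellings of the AP-1 site, CArG box and NBRE, and sites outside the windows, were not looked for. The Fos window lies at chr12:85473640-85473889 on the plus strand, that of Nr4a1 at chr15:101266596-101266845 (plus) and that of Nr4a2 at chr2:57124004-57124253 (minus). None of these windows overlaps an exon in GENCODE M21, although that of Nr4a1 lies inside the gene because another start is annotated upstream. They are shown 5′ to 3′ on the gene's strand, because they hold 2 or more copies. The window of Nr4a3 reaches into an annotated exon and is not shown. Capitals mark TGACG or its reverse complement.
Fos: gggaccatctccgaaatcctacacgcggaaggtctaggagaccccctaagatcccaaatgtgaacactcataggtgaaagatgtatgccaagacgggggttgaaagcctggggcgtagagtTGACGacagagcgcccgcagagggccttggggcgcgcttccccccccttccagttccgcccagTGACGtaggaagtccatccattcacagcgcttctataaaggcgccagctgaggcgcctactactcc
Nr4a1: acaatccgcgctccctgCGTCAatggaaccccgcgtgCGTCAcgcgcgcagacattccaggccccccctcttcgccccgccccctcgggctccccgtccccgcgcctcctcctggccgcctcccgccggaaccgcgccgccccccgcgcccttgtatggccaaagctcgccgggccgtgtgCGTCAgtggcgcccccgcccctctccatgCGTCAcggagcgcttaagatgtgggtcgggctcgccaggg
Nr4a2: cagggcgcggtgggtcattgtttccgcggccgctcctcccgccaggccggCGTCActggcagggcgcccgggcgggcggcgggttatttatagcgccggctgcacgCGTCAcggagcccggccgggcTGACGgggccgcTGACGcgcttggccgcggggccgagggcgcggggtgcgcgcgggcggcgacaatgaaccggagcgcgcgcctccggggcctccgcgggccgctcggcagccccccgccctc

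The table gives cpm taken on the effective library size, written here as cpm. The pools had 7719894 to 12848078 reads on genes, and 1 read was worth 0.0787 to 0.127 cpm. Pomc, the precursor of ACTH, stood at 34562 to 74260.1 cpm in Control pools and at 4241 to 8521 in DEX pools. In the 1 week recovery pools 1, 2 and 3 it stood at 149459, 284740 and 43612 cpm, and 4 weeks after withdrawal at 48189 to 80216. Other corticotroph markers did not follow Pomc. Tbx19 stood at 218 to 459 cpm in Control, 498 to 1490 in DEX and 94.4 to 188 at 4 weeks. Avpr1b stood at 12.1 to 60.0, 67.9 to 130 and 9.30 to 24.5 cpm in the same order. Crhr1, Pcsk1 and Neurod1 overlapped between DEX and Control. Over the 6 listed markers with Pomc, the median log2 difference against Control was −0.21 for DEX, −0.45 at 1 week and −0.84 at 4 weeks. Hormone RNA of other lineages was abundant in every pool, with Gh at 67563 to 265851 cpm and Prl at 31497.5 to 119783. Gh stood above Pomc in every pool but Recovery1w pools 1 and 2. Endothelial markers (7 of 7 detected) summed to 7.00 to 65.1 cpm in Control pools, 3.31 to 8.42 under DEX, 26.5 to 169 at 1 week and 80.0 to 150 at 4 weeks. A lower level in such sorted bulk RNA may reflect fewer cells of a type or less RNA per cell, and these cannot be told apart.

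**Figure D1:**
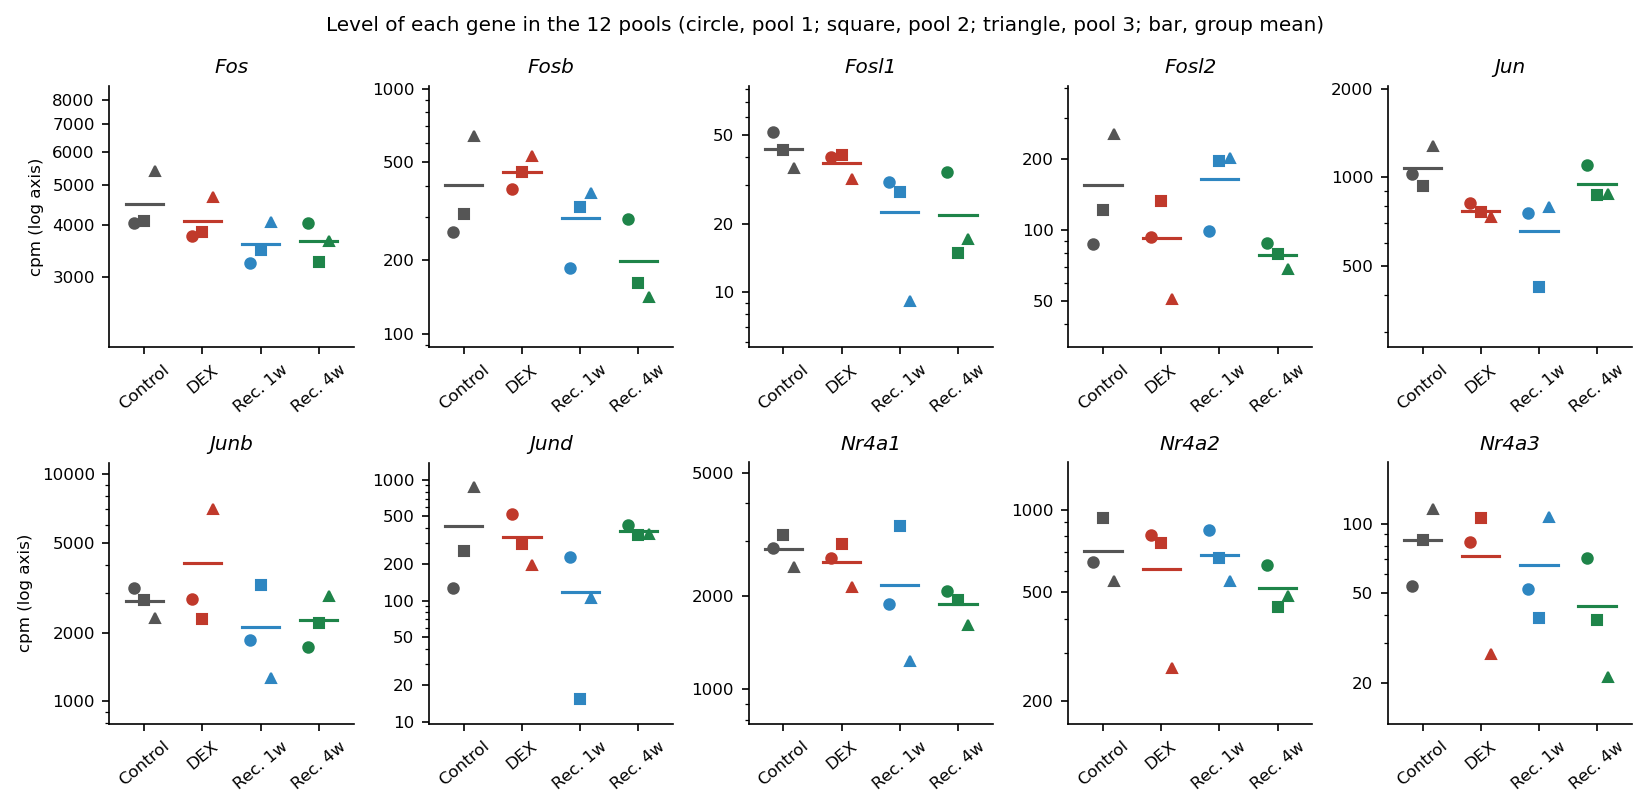
Level of each of the 10 genes in the 12 pools, in cpm on a log axis, with a panel for each gene. Points are pools (circle, square and triangle for pools 1, 2 and 3) and bars are group means. Fos sits between 3249 and 5391 cpm in all pools, while Jund runs from 15.3 to 871 cpm.

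Fos, Junb, Nr4a1 and Jun were among the most abundant genes by mean level, and Fosl1 was the lowest of the members. Fos ranked 8 among the 24736 genes tested by mean cpm, Junb ranked 17, Nr4a1 ranked 23 and Jun ranked 67, while Fosl2 ranked 1008, Nr4a3 ranked 2369 and Fosl1 ranked 5077. Divided by the length of the annotated exons, the mean levels over 12 pools were 1685 cpm per kb for Fos, 1221 for Junb, 674 for Nr4a1, 271 for Jun, 187 for Jund, 155 for Nr4a2, 54.2 for Fosb, 15.4 for Fosl1, 12.7 for Fosl2 and 11.1 for Nr4a3. This length joins the exons of all transcripts. It exceeds the longest transcript of Fosb (6243 against 3782 bases) and of Fosl2 (9680 against 6537), among others. Orders and family shares per length depend on this choice, and no other length was used. Neighbours in this order stood in the same order in all 12 pools for Junb over Nr4a1, Nr4a1 over Jun, and Fosb over Fosl1. Fos was over Junb in 11 of 12 pools, and the exception was DEX pool 3. Jund and Nr4a2 did not differ beyond their spread, with Jund the higher in 6 of 12 pools. Fosl1, Fosl2 and Nr4a3 also overlapped, since each neighbour kept its place in 8 of 12 pools.

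**Figure D2:**
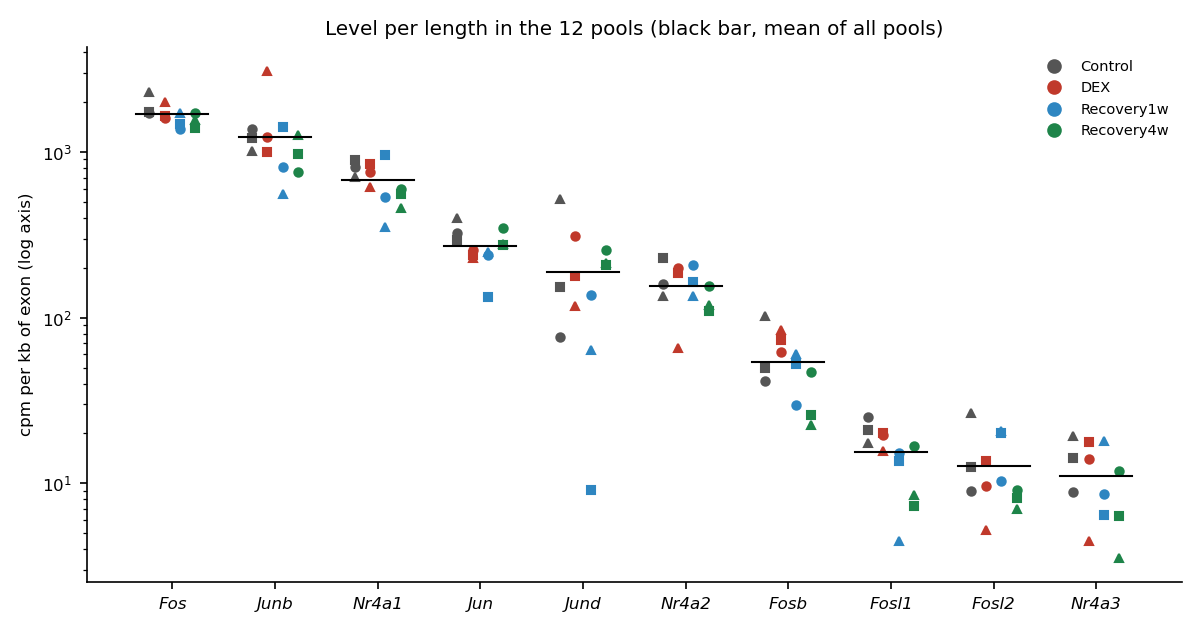
Level of each gene per kb of annotated exon in the 12 pools, in cpm per kb on a log axis, with genes ordered by their mean (black bar). Colours stand for the groups and shapes for pools 1, 2 and 3. Means run from 1685 for Fos to 11.1 for Nr4a3, and Jund covers the widest range.

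Within each family, 1 member supplied most of the level per length. Fos, which gives AP-1 its strongly activating partner, made up 93.9% to 97.6% of the FOS family in every pool. Fosb made up 3.97% of it on average in DEX pools and 1.94% 4 weeks after withdrawal. Junb, a JUN protein that activates more weakly than Jun at single AP-1 sites, made up 52.3% to 90.9% of its family. Nr4a1 made up 69.8% to 89.8% of the NR4A family, and Nr4a2 9.56% to 27.5%.

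No member passed limma's F test over the 3 contrasts against Control (0 of 10 at an adjusted p under 0.05, where 78 genes or 0.315% of all genes tested were called). By limma's unadjusted p under 0.05, 3 of 10 members passed the F test (Fosb, Jund and Fosl1), against 9.21% of all genes. No member was called in any pairwise comparison either. The share of all genes called was 0.121% for DEX against Control, 0% for 1 week recovery against Control, 0% for 4 weeks recovery against Control, 0.433% for 1 week recovery against DEX, 0.873% for 4 weeks recovery against DEX and 0% for 4 weeks against 1 week of recovery. Count models on the recovered reads (edgeR's quasi-likelihood test and DESeq2) also called none of the 10 in any comparison. A count of 0 of 10 is near these shares of all genes.

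Median differences were below 0 against both earlier states. The median log2 difference of the 10 genes was −0.17 for DEX against Control (7 of 10 below 0), −0.45 for 1 week recovery against Control (9 of 10) and −0.51 for 4 weeks recovery against Control (9 of 10). Over all genes tested, the first 2 of these medians were −0.022 and 0.0022, and the last was at 0. Against DEX, the members' medians were −0.32 at 1 week (8 of 10 below 0) and −0.31 at 4 weeks (8 of 10), and those of all genes 0.029 and 0.0021. Between 4 and 1 weeks of recovery the members' median was −0.032, with 5 of 10 on either side, and that of all genes −0.023. The comparisons share Control or DEX pools, so they do not support each other.

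**Figure D3:**
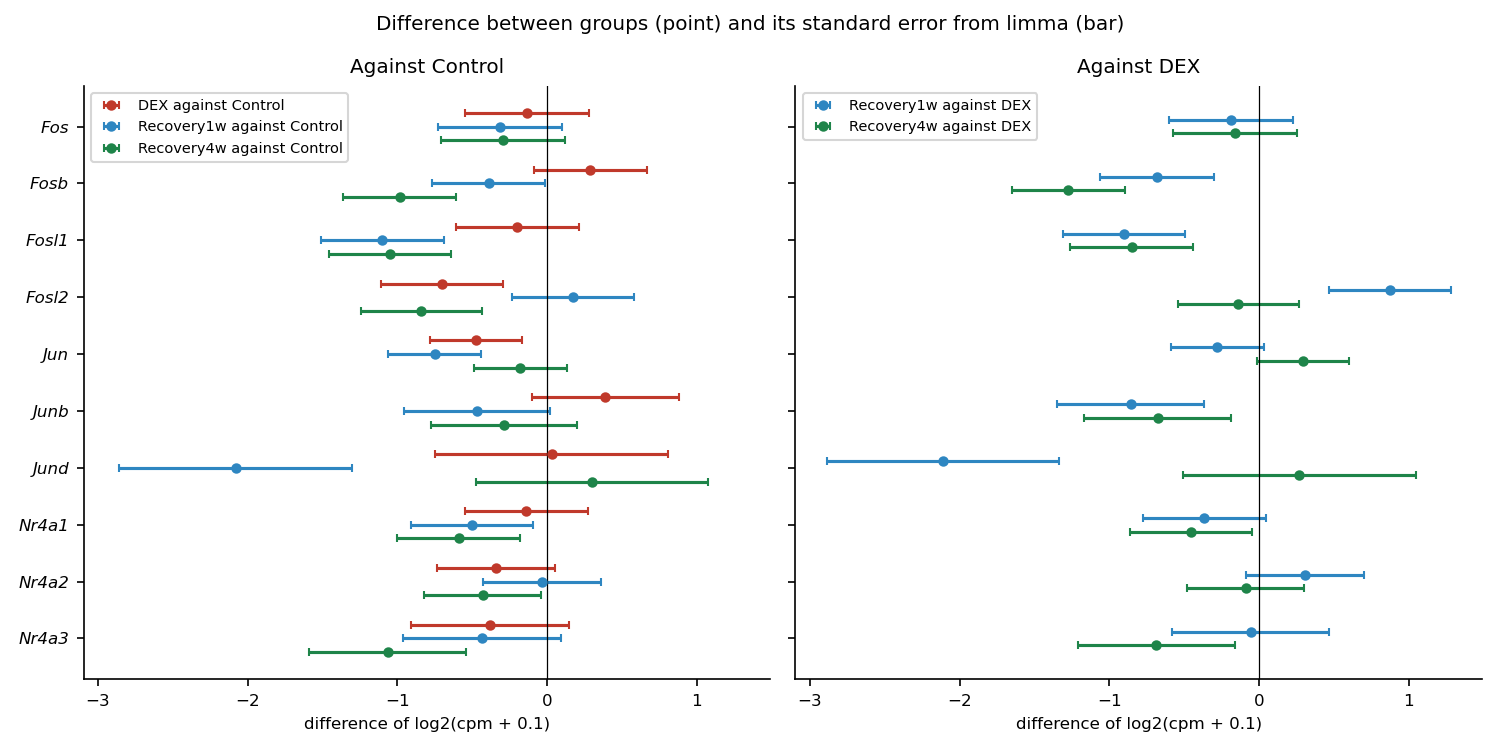
Difference of log2(cpm + 0.1) between groups for each gene (point) with limma's standard error (bar), against Control on the left and against DEX on the right. Points lie mostly below 0. The largest is Jund 1 week after withdrawal, at −2.08 against Control and −2.11 against DEX.

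Fos, the founding FOS gene and the usual marker of recent activation, lies at chromosome 12, 85473890 to 85477273 (GRCm38). It stood at 4036, 4081 and 5391 cpm in Control pools 1, 2 and 3, at 3761, 3849 and 4670.4 in DEX, at 3249, 3484 and 4059 at 1 week and at 4041, 3266 and 3657 at 4 weeks. All groups overlapped, and the highest pool was only 1.66-fold above the lowest. The group mean (± SD, n = 3) was 4503 ± 769 cpm for Control, 4093 ± 502 for DEX, 3597 ± 417 for 1 week recovery and 3655 ± 388 for 4 weeks recovery. The log2 difference of DEX against Control was −0.13 (95% interval −1.01 to 0.75, adjusted p = 0.974 by limma). With 3 pools a group, a change of any size within this interval remains possible. The SD of Fos within groups was 0.18 log2 units, while the median of the 21 genes within 2-fold of its mean was 0.40.

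Fosb (chromosome 7, 19302696 to 19310051), whose protein also has a long-lived short form, was the member nearest to the threshold. It stood at 259, 308 and 639.9 cpm in Control pools, at 387, 456 and 528 in DEX, at 184, 327 and 376 at 1 week and at 293, 160.3 and 140.3 at 4 weeks. All 3 DEX pools lay above all pools of both recovery groups, and Control overlapped with every group. The log2 difference was 0.29 (SE 0.38) for DEX against Control, −0.98 (SE 0.38, adjusted p = 0.708 by limma) for 4 weeks recovery against Control, and −1.27 (SE 0.38) for 4 weeks recovery against DEX. The last had an unadjusted p of 0.00407 and an adjusted p of 0.156 by limma. It passed at 0.00604 when libraries were weighted by their quality (array weights) and at 0.0239 when only these 2 groups were fitted, and over all alternatives the adjusted p ran from 0.00604 to 0.520. Leaving out Recovery4w pool 3 gave −1.07 and the adjusted p of 0.520.

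Fosl1 (Fra-1, chromosome 19, 5447547 to 5455946) and Fosl2 (Fra-2, chromosome 5, 32135801 to 32157842) encode FOS proteins without the strong activation domain of Fos. Both had lower mean levels than Fos and Fosb. Fosl1 stood at 51.4, 42.9 and 35.6 cpm in Control, 40.01, 40.8 and 31.7 in DEX, 30.9, 27.9 and 9.12 at 1 week and 34.0, 14.9 and 17.3 at 4 weeks. Both recovery groups lay below every Control pool, and the 1 week pools also lay below every DEX pool. The log2 differences against Control were −1.10 at 1 week (SE 0.41, adjusted p = 1 by limma) and −1.05 at 4 weeks (SE 0.41, adjusted p = 0.712). Without Recovery1w pool 3 the first became −0.54. Fosl2 stood at 87.6, 122 and 256 cpm in Control, 93.9, 132 and 50.9 in DEX, 99.5, 196 and 201 at 1 week and 88.4, 78.9 and 68.2 at 4 weeks. Its 4 week pools all lay below its 1 week pools (log2 difference −1.01, SE 0.41, adjusted p = 0.815 by limma), and it overlapped in all other comparisons.

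Jun, the partner that gives AP-1 its strongest dimer with Fos, is an intronless gene at chromosome 4, 95049034 to 95052222. It stood at 1026, 935 and 1275 cpm in Control, 817, 763 and 734 in DEX, 759.7, 425 and 795 at 1 week and 1102, 870.1 and 882 at 4 weeks. Each DEX pool and each 1 week pool lay below every Control pool, and each 4 week pool lay above every DEX and 1 week pool. The log2 difference was −0.47 for DEX against Control (95% interval −1.13 to 0.18, adjusted p = 0.833 by limma), −0.75 for 1 week against Control (SE 0.31, adjusted p = 1) and −0.18 for 4 weeks against Control. For 4 weeks against DEX it was 0.30 (SE 0.31, adjusted p = 0.863 by limma).

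Junb lies at chromosome 8, 84974484 to 84978718. It stood at 3143, 2803 and 2323 cpm in Control, 2836, 2299 and 7042 in DEX, 1862, 3261 and 1274 at 1 week and 1739, 2223 and 2913 at 4 weeks. DEX pool 3 stood apart, and all groups overlapped. The log2 difference of DEX against Control was 0.39 (SE 0.49, adjusted p = 0.915 by limma) and became −0.099 without that pool.

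Jund (chromosome 8, 70698949 to 70700616), the JUN gene that is usually expressed steadily rather than induced, varied most. It stood at 127, 257 and 871 cpm in Control, 519, 297 and 196 in DEX, 229.8, 15.3 and 106 at 1 week and 426, 348 and 358 at 4 weeks. The lowest value, from 120 reads, and the highest differed by 57.0-fold. The 4 week pools lay above all 1 week pools, and the other groups overlapped. The log2 difference of 1 week against Control was −2.08 (SE 0.78, 95% interval −3.73 to −0.43, adjusted p = 1 by limma), and it was −0.97 without Recovery1w pool 2. The SD of Jund within groups, 1.28 log2 units, was larger than that of 99.5% of the 616 genes within 2-fold of its mean.

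Nr4a1 (Nur77; chromosome 15, 101254269 to 101274795), the NR4A factor most tied to CRH signalling at Pomc, stood at 2847, 3155 and 2488 cpm in Control, 2647, 2953 and 2146 in DEX, 1886, 3367 and 1239 at 1 week and 2080.2, 1944 and 1619 at 4 weeks. The 4 week pools lay below all Control and all DEX pools, and the 1 week group overlapped with every group. The log2 difference was −0.14 for DEX against Control (95% interval −1.01 to 0.73), −0.50 for 1 week (SE 0.41, adjusted p = 1 by limma) and −0.59 for 4 weeks (SE 0.41, adjusted p = 0.869).

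Nr4a2 (Nurr1), known for its part in dopamine neurons, lies at chromosome 2, 57106830 to 57124003, and Nr4a3 (Nor1) at chromosome 4, 48045153 to 48086447. Nr4a2 stood at 647, 930.0 and 547 cpm in Control, 809, 757 and 264 in DEX, 842, 667 and 548 at 1 week and 626, 443 and 486 at 4 weeks. Nr4a3 stood at 53.3, 85.3 and 116 cpm in Control, 83.4, 107 and 26.9 in DEX, 51.8, 38.5 and 107 at 1 week and 71.2, 37.98 and 21.2 at 4 weeks. Both genes overlapped between all groups, and both were lower in DEX pool 3 than in the other 2 DEX pools. For 4 weeks recovery against Control, the log2 differences were −0.43 (SE 0.39) for Nr4a2 and −1.07 (SE 0.53) for Nr4a3, with adjusted p of 0.907 and 0.795 by limma.

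Groups that did not overlap were counted for each comparison and set beside the same count over all genes tested. All pools of the first group lay below all pools of the second for 1 member in DEX against Control (Jun; 6.23% of all genes), for 2 in 1 week recovery against Control (Fosl1 and Jun; 2.61%) and for 2 in 4 weeks recovery against Control (Fosl1 and Nr4a1; 6.42%). Against DEX, they did so for 2 members at 1 week (Fosb and Fosl1; 6.87%) and for 2 at 4 weeks (Fosb and Nr4a1; 9.67%), and for 1 member between 4 and 1 weeks (Fosl2; 3.72%). In the other direction, no member lay above in DEX against Control (6.61% of all genes), in 1 week recovery against Control (3.47%), in 4 weeks recovery against Control (6.77%) or in 1 week recovery against DEX (6.97%). Jun lay above in 4 weeks recovery against DEX (1 member; 9.8%), and Jun and Jund did in 4 weeks against 1 week of recovery (2 members; 5.19%). By limma's unadjusted p under 0.05, 0 members passed in DEX against Control (6.8% of all genes), 3 in 1 week recovery against Control (Fosl1, Jun and Jund; 3.79%) and 2 in 4 weeks recovery against Control (Fosb and Fosl1; 6.35%). Against DEX, 3 passed at 1 week (Fosl1, Fosl2 and Jund; 10.8%) and 1 at 4 weeks (Fosb; 9.94%), and 2 passed in 4 weeks against 1 week of recovery (Fosl2 and Jund; 5.47%).

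**Figure D4:**
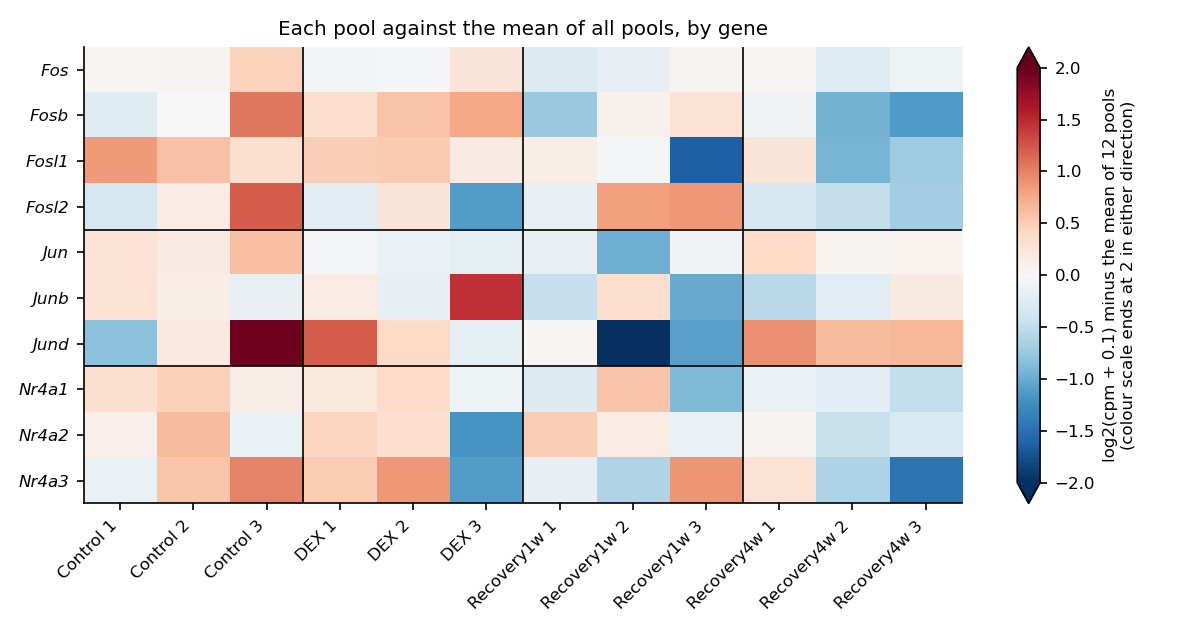
Deviation of each of the 12 pools (columns, by group) from the mean of all pools, for each gene (rows), as log2(cpm + 0.1) on a colour scale that ends at 2 in either direction. Control pool 3 holds the highest value of 6 of the 10 genes, and the single darkest cells are Jund in Control pool 3 and in Recovery1w pool 2.

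The members did not vary as 1 block. Over the 45 pairs of members, the median Pearson r of log2 levels across the 12 pools was 0.22 (range −0.57 to 0.82, 31 pairs above 0), the median Spearman rho was 0.20 and the median r of deviations from group means was 0.12. Jun and Jund were the pair with the highest r, at 0.82 (rho 0.61), which was 0.14 without the 2 pools farthest from the median of Jun. Fosl1 and Nr4a1 had an r of 0.82 (rho 0.69, and 0.66 without the 2 farthest pools), and Fos and Fosb 0.78 (rho 0.66, and 0.64). Junb and Nr4a3 had the lowest, at −0.57 (rho −0.48). These are descriptions over 12 pools that share group, depth and handling. With Pomc, r ran from −0.47 (Fosb) to 0.40 (Fosl2). For deviations from group means, these 2 were −0.15 and 0.092, and r with Pomc ran from −0.49 (Jun) to 0.67 (Nr4a1).

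Pools also differed in chaperone RNA. A list of 13 heat shock and chaperone genes raised by tissue dissociation, without the members, summed to 6444, 9466 and 17179 cpm in Control pools 1, 2 and 3 and to 8077, 10689 and 6997 in DEX. At 1 week it summed to 5973, 7493 and 15015 cpm, and at 4 weeks to 7584, 7736 and 3988. Control pool 3 was the highest pool for this sum and for 6 of the 10 members, and Recovery4w pool 3 was the lowest for the sum and for Fosb and Nr4a3. Over the 12 pools, r with this sum was 0.83 for Nr4a3 (rho 0.86), 0.76 for Fosl2 (rho 0.71), 0.73 for Fosb (rho 0.65), 0.56 for Fos (rho 0.52) and −0.38 for Junb (rho −0.41). It was nearer to 0 for Jun (0.23), Jund (0.14), Nr4a2 (0.11), Nr4a1 (0.041) and Fosl1 (−0.080). This order rested in part on the 2 pools farthest from the median of the sum. Without them r was 0.78 for Nr4a3, 0.70 for Nr4a1, 0.66 for Fosb, 0.48 for Fosl1 and 0.47 for Fosl2. It was then 0.34 for Nr4a2, 0.19 for Fos, −0.0044 for Jund, −0.078 for Jun and −0.10 for Junb. None of the 13 chaperone genes was called in any comparison. The part of dissociation in the members' levels was not tested.

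The genes whose level followed a member most closely were looked for among 15746 genes with a mean of at least 1 cpm. For Fos these were Meaf6 (r = 0.91), Pcsk1n, Ppp2r3d, Smarcd1 and Hnrnpl (r = 0.85). For Jun they were Junos (r = 0.93), Tmem8, Morn1, Ago4 and Ocel1 (r = 0.90), and for Nr4a1 Pprc1 (r = 0.91), Amigo3, Trmt2a, E2f4 and Ttc4 (r = 0.87). Each r is over the same 12 pools, chosen as the highest of many.

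Exons of 4 members overlap a gene on the opposite strand in GENCODE M21. The cDNA kit used does not mark strand, while reads were counted by strand. Reads from exon bases shared by a member and its partner therefore cannot be told apart. Jund shares 877 of its 1668 exon bases with the antisense gene Gm11175, which stood at 53.5% to 73.3% of the cpm of Jund in every pool (r = 1.00 when rounded, on log2 levels). Fosl1 shares 1163 of 2033 bases with Ccdc85b, which stood at 197% to 374% of Fosl1 (r = 0.93). All differences, counts and thresholds passed that are given for Jund and Fosl1 carry this limit. Jun shares 232 of 3189 bases with Junos, at 10.6% to 17.0% of Jun, and Junb shares 173 of 2301 with Prdx2, at 4.70% to 31.9% of Junb (r = 0.013). The low Jund value of Recovery1w pool 2 was thus met by a Gm11175 value of 9.43 cpm. Jund and Junb also have GC-rich transcripts, at 67.1% and 62.6%, above 99.8% and 99.0% of 9488 genes. In Recovery1w pool 2, where Jund was lowest, the 949 genes richest in GC stood above their mean over pools (median 0.36 log2 units). They also did so in Control pool 3, where Jund was highest (median 0.29). The part of GC content in the values of Jund was not tested.

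**Figure D5:**
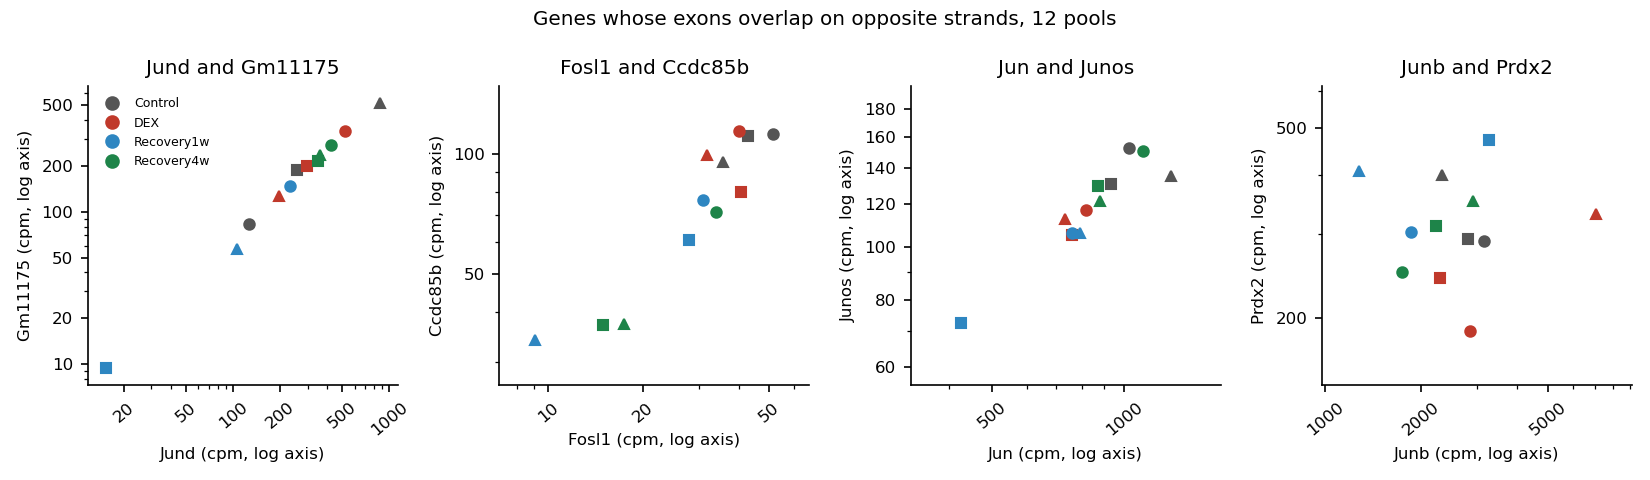
Level of 4 members (horizontal) and of the gene that overlaps each on the opposite strand (vertical) in the 12 pools, in cpm on log axes. Jund and Gm11175 lie along a line over the whole range from 15.3 to 871 cpm of Jund, and Junb and Prdx2 do not.

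Other genes of these pathways were read from 4 lists. Of 19 other basic leucine zipper genes that can pair with AP-1 proteins or share its sites, 1 was called in any comparison. That was 1 week recovery against DEX, where 0.433% of all genes were called. Crem, whose short form ICER is a cAMP-induced repressor, rose by 1.63 log2 units (SE 0.31) from DEX to 1 week recovery, with an adjusted p of 0.0297 by limma and of 0.0291 by edgeR. It stood at 195, 319 and 191 cpm in Control, 94.2, 115 and 55.2 in DEX, 295, 313 and 195 at 1 week and 253, 183 and 189.8 at 4 weeks. All DEX pools of Crem thus lay below the 9 other pools. The adjusted p ran from 0.0149 (without Recovery1w pool 3) to 0.177 (without DEX pool 3) and was 0.156 with only the 2 groups fitted. It also missed the threshold without DEX pool 1, Recovery1w pool 1 or 2, or Recovery4w pool 2 or 3.

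Of 39 other immediate early genes tested, 2 were called lower at 1 week than under DEX, where 0.433% of all genes were called. At 4 weeks 1 was called lower than under DEX (0.873% of all genes), and 2 passed the F test (0.315%). Egr3 and Egr4, zinc finger factors induced by the same signals, were the genes called. Egr3 stood at 39.7 to 42.1 cpm in Control, 57.1 to 76.9 in DEX, 7.90 to 17.5 at 1 week and 7.40 to 18.02 at 4 weeks. It fell by 2.61 log2 units from DEX to 1 week (SE 0.35, adjusted p = 0.0044 by limma) and by 2.69 to 4 weeks (SE 0.35, adjusted p = 0.00271), and without DEX pool 3 the first had an adjusted p of 0.0537. Egr4 stood at 176 to 283 cpm in Control, 149 to 222 in DEX, 15.8 to 91.2 at 1 week and 70.5 to 83.2 at 4 weeks. It fell by 2.46 log2 units from DEX to 1 week (SE 0.45), with an adjusted p of 0.0228 by limma and of 0.0571 by edgeR. The adjusted p was 0.114 without DEX pool 1, 0.147 without DEX pool 3 and 0.0664 without Recovery1w pool 2. It was 0.177 with only the 2 groups fitted and 0.0554 with array weights, where the log2 difference was −1.36. The median of the 39 was 0.072 for DEX against Control, −0.57 for 1 week against Control and −0.39 for 4 weeks against Control, and −0.48 and −0.32 for the recovery groups against DEX. Over all genes tested, these medians were −0.022, 0.0022, 0, 0.029 and 0.0021 in the same order. None of the 39 was called against Control.

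None of 28 upstream regulators tested (SRF and its cofactors, CREB coactivators and the MAP, calcium and PKA kinases) was called in any comparison by limma or edgeR. In a pairwise comparison, 1 to 5 of the 28 had an unadjusted p under 0.05 by limma, against 3.79% to 10.8% of all genes. The largest differences of DEX against Control were −0.86 for Elk3 (SE 0.37) and 0.85 for Camk2b (SE 0.40), with adjusted p of 0.685 and 0.728. Of 15 receptors and partners of the NR4A factors, 1 was called, in 4 weeks recovery against DEX (0.873% of all genes). Rxrg, a retinoid X receptor, rose by 1.34 log2 units from DEX to 4 weeks recovery (SE 0.26, adjusted p = 0.0265 by limma). Its DEX pools stood at 17.6 to 26.7 cpm and its 4 week pools at 50.9 to 61.2, and the adjusted p ran from 0.0729 to 0.152 when any 1 of these 6 pools was left out. Among the markers of other cell types, limma called 5 endothelial genes, Col3a1, Pdgfrb and Tshb higher 4 weeks after withdrawal than under DEX. These calls stand beside the members' medians given above, and edgeR did not call Tshb. In 1 week recovery against DEX, limma called 1 endothelial gene and 1 pericyte or fibroblast gene higher (0.433% of all genes). There edgeR called 3 and 1. The part of these cell types in the members' values was not tested.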

How the data were processed

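Total RNA of sorted Pomc-eGFP+ cells was measured in 12 libraries, 3 pools in each of 4 groups, with groups and pool numbers taken from the labels. The authors made cDNA with a SMART-V4 kit, trimmed reads with Trim Galore 0.6.5, aligned them to GRCm38 with STAR 2.7.1a, counted them by strand with featureCounts 2.0.0 and scaled them with edgeR, per the methods and the submitters' processing notes. The deposited values are a signal, namely cpm on the effective library size, so the libraries do not share a total. They had been taken for ordinary cpm when the tests were designed. Dividing by the value of 1 read gave whole numbers for 271881 of 271881 values above 0 (100%, tolerance 1e-06), and so the read counts behind the deposited signal.

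Genes with at least 0.1 cpm in 3 libraries (24736 of 55304) were tested as log2(cpm + 0.1) with limma 3.58.1 in R 4.3.3, in a fit to all 4 groups with trended, moderated variances and Benjamini-Hochberg adjustment over all genes tested at 0.05. Fold changes are on this scale, which understates those of low genes. Depth was 7719894 to 12848078 reads on genes (median 10227503.5), and a permutation test of 3 against 3 pools cannot go below p = 0.1. P-values measure the spread between pools. Alternatives were edgeR 4.0.16 and DESeq2 1.42.0 on the recovered reads, other pseudocounts, filters and scaling, array weights, a replicate block, fits to 2 groups and leaving out each library. Fits were tested on simulated counts with planted changes larger than any difference seen for a member, so this check does not speak to smaller changes.

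All members are named with their values in every library, and differences are given for the comparisons described. From the other lists, genes that passed the adjusted threshold and, for the regulators, the largest differences of DEX against Control were named, and the 5 genes nearest to Fos, Jun and Nr4a1 by Pearson's r. Members and lists were chosen with earlier results of these data known. Positions and exon lengths are from GENCODE M21 (GRCm38).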

Additional observations from a re-analysis of the deposited data

How the results depend on the processing

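With 3 pools a group the 95% intervals of every member span 1 log2 unit or more, and their width is not a limit of detection. Differences beyond 1 log2 unit also went uncalled. Examples are −1.27 for Fosb in 4 weeks recovery against DEX (adjusted p = 0.156 by limma) and −2.11 for Jund in 1 week recovery against DEX (0.300). Over all members, comparisons and settings, 1275 values kept their direction and side of the threshold, 42 turned direction and 3 newly passed.

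With array weights 2 members passed the F test (Fosb, adjusted p = 0.0215, and Fosl1, 0.0406) and 2 passed in 4 weeks recovery against DEX (Fosb, 0.00604, and Fosl1, 0.0296). With only the 2 groups fitted, 1 passed there (Fosb, 0.0239). No member passed in any comparison with a library left out. The cause was not tested.

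Turned in direction by another setting were Jund in DEX against Control (−0.33 by edgeR, −0.34 by DESeq2) and in 4 weeks recovery against Control (−0.17 by either), and Fosl1 in 4 weeks against 1 week (−0.035 by edgeR, −0.036 by DESeq2, −0.53 with array weights). With array weights, Nr4a3 in DEX against Control became 0.069, Fosl2 in 1 week recovery against Control −0.044 and Nr4a2 there 0.0014.

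With 1 library left out, log2 differences that turned ran as follows. In DEX against Control they were −0.23 to 0.0054 for Fos, −0.099 to 0.71 for Junb, −0.60 to 0.79 for Jund, −0.63 to 0.18 for Nr4a2 and −0.77 to 0.22 for Nr4a3. In 1 week recovery against Control they were −0.65 to 0.0027 for Fosb, −0.16 to 0.61 for Fosl2 and −0.20 to 0.18 for Nr4a2, and in 4 weeks recovery against Control −0.33 to 1.06 for Jund. In 1 week recovery against DEX they were −0.44 to 0.012 for Jun, −0.21 to 0.59 for Nr4a2 and −0.66 to 0.33 for Nr4a3. In 4 weeks recovery against DEX they were −0.51 to 0.17 for Fosl2, −0.063 to 0.64 for Jund and −0.61 to 0.20 for Nr4a2. In 4 weeks against 1 week they were −0.052 to 0.11 for Fos, −0.51 to 0.37 for Fosl1, −0.14 to 0.54 for Junb and −0.43 to 0.29 for Nr4a1.

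Over all genes, the F test called 78 genes, 158 with edgeR, 734 with DESeq2, 1069 with array weights and 7 to 186 with a library left out. Array weights, DESeq2 and a fit to only the 2 groups called 1300, 655 and 737 in 4 weeks recovery against DEX (216 as reported, 19 to 402 with a library left out). In 1 week recovery against DEX they called 566, 573 and 13 (107, 7 to 201), and in DEX against Control 166, 190 and 49 (30, 2 to 66, and 49 and 54 with pseudocounts of 0.5 and 1). In the comparisons with 0 calls, array weights and DESeq2 called 4 and 8 (1 week recovery against Control, with 1 by edgeR and 2 and 3 at the larger pseudocounts), 186 and 60 (4 weeks recovery against Control) and 8 and 15 (4 weeks against 1 week).

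The pool numbers are shared between groups, and no label says that a number marks a shared batch. Deviations of same-numbered pools had r of −0.29 to 0.40 over 18 pairs, with 7 and not all over 0.1, so the numbers were not taken as pairing. That 8 of 12 libraries were nearest to their own number is a hint from the data, not the design. With the number as a replicate block, 0 members were called in any comparison, and 85 genes by the F test.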

Other observations

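The other immediate early genes differed by pool in the recovery and DEX groups. Of 39 such genes, 9 had their highest level in DEX pool 3, the pool with 7042 cpm of Junb. Recovery1w pool 3 held the lowest level of 13 of the 39 and of 3 of the 10 AP-1 and Nr4a genes, and Recovery1w pool 2 the lowest of 10 and 2. No DEX pool other than pool 3 held the highest or the lowest level of any AP-1 or Nr4a gene.

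The transcript GC content of the members ran from 47.9% for Nr4a2 to 67.1% for Jund. The 949 genes richest in GC stood above their mean over pools by a median of 0.29 log2 units in Control pool 3 and of 0.22 in DEX pool 3.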
